A study of Gallus gallus with 22 samples.

Results

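The jejunum and the pancreas of SB-fed broilers were compared, using 11 of the 22 libraries of the study: all 6 from the proximal jejunum and all 5 from the pancreas of broilers given the SB diet. They were male broilers of 1 commercial strain, sampled on d 24 after a diet with 2% sugarcane bagasse (SB), the fibrous residue of sugarcane, added over the top of the feed. The other 11 libraries came from control broilers of the same strain, sex and age on the diet without SB. They served as a second comparison of the same tissues and in fits over both diets. They were also used to link gene symbols and to define sets of tissue genes. One broiler per pen gave both tissues, the labels name each library as a separate sample, and the authors left out samples they judged to be outliers.

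The proximal jejunum is lined by enterocytes, whose brush border carries digestive enzymes and nutrient and ion transporters, and by goblet cells that secrete mucus. The pancreas is mostly made of acinar cells, which make and secrete digestive enzymes in very large amounts, with ducts that add fluid and islets that release hormones. RNA of whole tissue mixes all of these cells, so fewer cells of a type and less RNA per cell cannot be told apart in any value below.

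Depth differed between the tissues and among libraries. Total counts ranged from 42540952 to 203039911 in the jejunum (median 49660445) and from 80467800 to 300479804 in the pancreas (median 186019684), and the log2 totals differed between the tissues (exact permutation test, two-sided, p = 0.039). Expression is given below as normalized CPM, that is counts scaled to 1000000 after library totals are multiplied by a scaling factor (the trimmed mean of M-values), so that a transcript can exceed its plain share of the library. Libraries of a tissue resembled each other: across genes, r of log2 CPM was 0.957 to 0.983 within the jejunum and 0.947 to 0.969 within the pancreas, against 0.723 to 0.776 between the tissues, and the first principal component, which separated the tissues, took 80.4% of the variance. Gene symbols could be linked to 118 of the tested identifiers, all of them from the study's lists of SB-responsive genes. Only 7 of 172 marker genes of digestive and other cell types were among those, so the tissue labels could be checked against few genes and not against digestive enzymes, brush border enzymes or islet hormones such as insulin. Of the 7, the intestinal markers *SLC9A3*, *AGR2* and *GAL3ST2* were higher in jejunum, and the duct marker *SPP1* and the islet gene *GHRL* were higher in pancreas. The other 2 went against their list: *SCTR*, listed for pancreatic ducts, was higher in jejunum (log2 fold change, jejunum minus pancreas, 1.02), and *TFF3*, listed for goblet cells, was higher in pancreas (-1.58).

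The counts of the pancreas were concentrated in very few genes, whereas those of the jejunum were spread over many. The most abundant gene took 21.7%, 21.7%, 25.6%, 22.9% and 25% of the counts in pancreas replicates 1 to 5. In the jejunum, the corresponding share was lowest at 0.900%, with a median of 1.55% and a highest value of 1.93%, so the tissues did not overlap. The means were 23.4% ± 1.83 (SD, n = 5) and 1.46% ± 0.381 (SD, n = 6). This was the largest separation that regrouping the 11 libraries can give (exact permutation test, two-sided, p = 0.00216, the smallest p it can give). The regroupings treat the libraries as independent. By the study's design, 1 broiler from each of 6 pens gave both tissues, so each pancreas library shares a broiler with a jejunum library.

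The 10 most abundant genes together held 57.2% ± 3.08 of the counts in the pancreas (SD, n = 5) and 5.87% ± 0.996 in the jejunum (SD, n = 6), and the 100 most abundant held 76.6% ± 3.52 and 17.6% ± 1.65 (exact permutation tests, two-sided, p = 0.00216 each). As few as 7 to 10 genes (median 8) made up 50% of the counts of a pancreas library, compared with 1021 to 1207 genes (median 1048) in the jejunum (exact permutation test of the log2 number, two-sided, p = 0.00216). Pancreas replicate 1 was the least concentrated, with 70.6% of counts in its top 100 genes, while the other 4 pancreas libraries held 76.4% to 78.9%. Outside the 100 most abundant genes, the pancreas libraries kept 16986543 to 63582228 counts, compared with 34641863 to 166593269 in the jejunum, and these ranges overlapped.

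**Figure D1:**
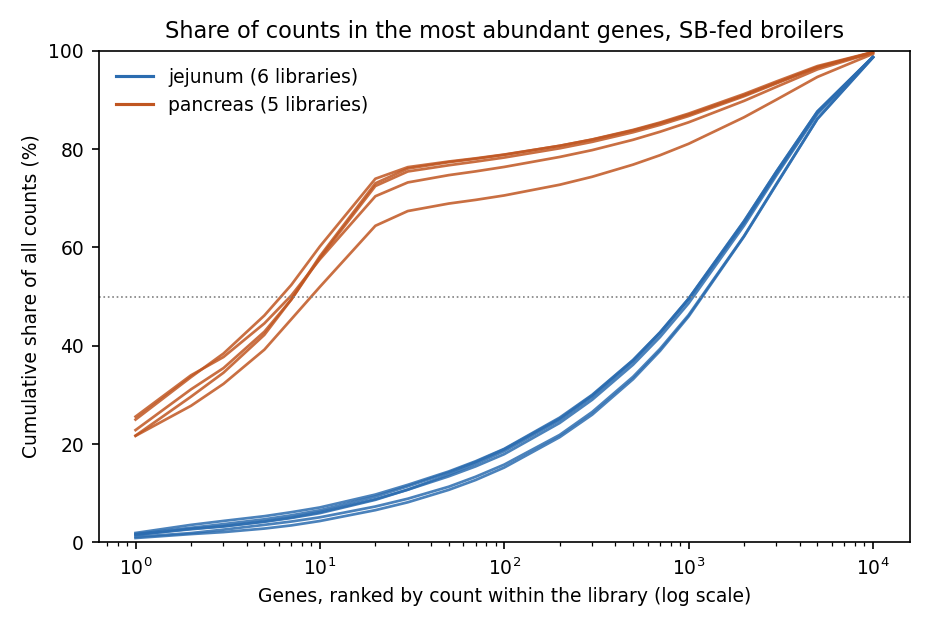
Cumulative share of all counts (y axis, %) held by the most abundant genes of each library, ranked within that library (x axis, log scale), with 1 line per library in jejunum (blue, 6 libraries) and pancreas (orange, 5 libraries) of SB-fed broilers. The dotted line marks 50%, which the pancreas libraries cross at 7 to 10 genes and the jejunum libraries at 1021 to 1207 genes.

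None of the 10 most abundant genes of either tissue could be linked to a symbol, and the 2 highest of each are given by identifier. In the pancreas, ENSGALG00010011790 stood at 312500, 488400, 483900, 502900 and 530800 normalized CPM in replicates 1 to 5, while the jejunum libraries held 0.190 to 0.853 (median 0.472). The groups did not overlap, and the log2 fold change was -19.89 with an SE of 3.16 (adjusted p = 0.000136). Fold changes are jejunum minus pancreas throughout, so that a negative value means higher in pancreas. The SE is derived from the test statistic and is not the spread of the library values. The second, ENSGALG00010008076, stood at 88080 to 183700 normalized CPM in the pancreas and 0.152 to 0.661 in the jejunum, again without overlap (log2 fold change -18.66, SE 1.6, adjusted p = 7.71e-07). Over the 10 most abundant pancreas genes, log2 fold changes were -19.89 to -13.67 and jejunum means 0.0749 to 4.14 normalized CPM. As the genes were chosen for their level in the pancreas, the direction was largely set by that choice, and the same holds for the leading jejunum genes.

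The 10 leading jejunum genes had log2 fold changes of -0.77 to 7.93, and the level of the first ones in the pancreas depended on the library. ENSGALG00010007977 ranged from 4230 to 11360 normalized CPM in the jejunum (median 8989), and it stood at 1.06, 7.22, 6.24, 594.2 and 75.4 in pancreas replicates 1 to 5. No pancreas library reached the lowest jejunum library, but replicate 4 was far above the others (log2 fold change 5.87, SE 1.48, adjusted p = 0.0037). ENSGALG00010023823 was again highest in pancreas replicate 4, with 142.6 there and 1.19 to 19.1 in the other 4, against 4914 to 9713 in the jejunum (log2 fold change 7.61, SE 1.20, adjusted p = 0.00013). Of the 10 most abundant jejunum genes, 9 passed the test as higher in jejunum, and the remaining one was higher in pancreas, at 3226 against 1895 normalized CPM on average, by less than the fold required (log2 fold change -0.77, SE 0.21, adjusted p = 0.00599).

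Across the transcriptome, 5725 of 14878 genes tested (38.5%) differed between jejunum and pancreas, that is by 1 or more on the log2 scale, in either direction, with an adjusted p under 0.05 in the quasi-likelihood test of edgeR. These divided into 2970 genes higher in jejunum (20.0%) and 2755 higher in pancreas (18.5%). The median log2 fold change over all genes tested was -0.02, and 10096 genes (67.9%) passed the adjusted p at any fold. For 7431 genes (49.9%), the 2 tissues did not overlap in any library, with jejunum above in 3658 (24.6%) and pancreas above in 3773 (25.4%), and 4870 of the 5725 called genes were among them. The split between the tissues rests on the scaling: with plain totals and no scaling factor, the median of all genes moved by 1.76 on the log2 scale towards jejunum, and 94.4% of 11825 called genes were higher in jejunum, compared with 51.9% with the scaling.

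The largest differences were in the pancreas. Among genes of at least 10 normalized CPM in their higher tissue, the tenth largest log2 fold change was -18.93 for pancreas and 8.02 for jejunum. A size of 5 or more was reached by 217 genes higher in pancreas and 245 higher in jejunum, so large differences were about as common on either side and the extreme ones, of 10 or more, were mostly pancreatic (51 genes, against 4 for jejunum, none of which could be linked to a symbol). Genes without any count in the other tissue were also fitted, although such a fold has no finite value. Their fitted log2 fold changes reached -18.54 for pancreas and 11.4 for jejunum, sizes that fall in the class of 10 or more. Of the genes tested, 6 had no count in any jejunum library. Against a floor of 3 counts over that group, they were at least 283-fold to 113000-fold higher in pancreas. Likewise, 5 had no count in any pancreas library and, against 3 counts over that group, were at least 16.9-fold to 440-fold higher in jejunum, and none of these 11 genes could be linked to a symbol.

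The share of genes that differed depended on how abundant they were. In the class of 10 to 100 normalized CPM (mean of the 11 libraries), which held 7344 genes, 32.8% were called and the median absolute log2 fold change was 0.61. This was the class with the lowest share. Below 1 normalized CPM, 43.1% of 1975 genes were called but only 24.8% were without overlap, and the median SE was 0.48, compared with 0.13 in the class of 10 to 100. From 1 to 10 normalized CPM, 43.1% of 4296 genes were called and 46.3% were without overlap.

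Above 100 normalized CPM, differences were more frequent. Of 1222 genes between 100 and 1000 normalized CPM, 47.5% were called, with 337 higher in jejunum and 244 higher in pancreas, and 70.5% were without overlap. Over 1000 normalized CPM, 36 of 41 genes were called. There the direction was one-sided, with 29 higher in pancreas and 7 in jejunum, and the median log2 fold change was -15.2. The classes were set by the mean over both tissues, so a gene that is extreme in 1 tissue is moved up by that tissue.

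**Figure D2:**
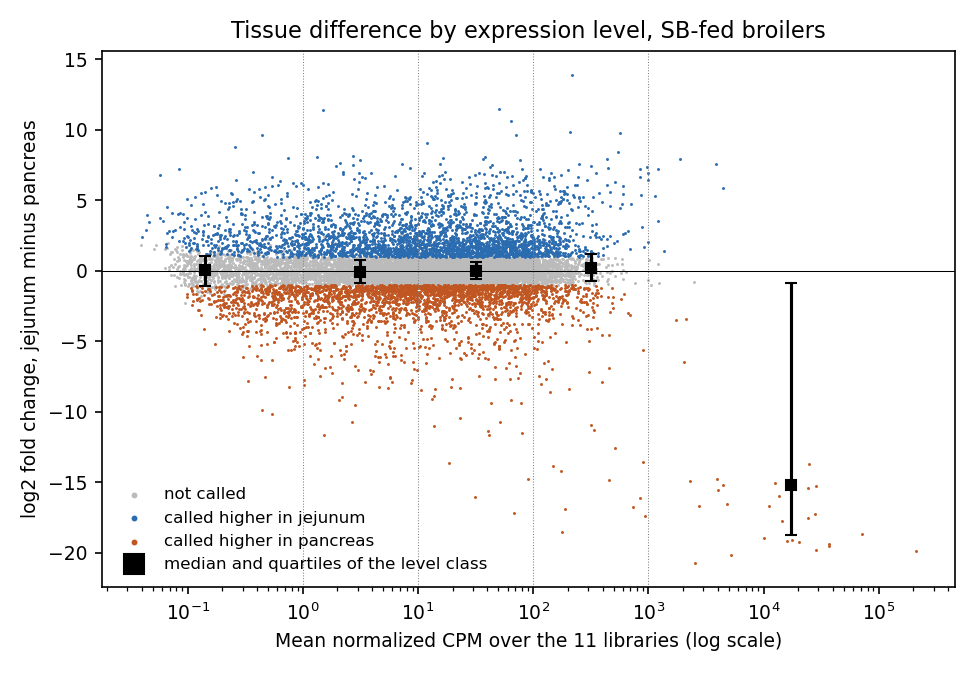
Log2 fold change (jejunum minus pancreas, y axis) against mean normalized CPM over the 11 libraries (x axis, log scale), 1 point per gene tested, coloured by call, with black squares and bars for the median and quartiles of each level class. The medians lie between -0.11 and 0.17 in the 4 classes up to 1000 normalized CPM and at -15.2 in the class above it.

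Few transcripts were confined to 1 tissue at this depth. At least 1 normalized CPM in every library of its tissue was reached by 11901 jejunal and 11784 pancreatic genes, and 11082 of these were shared by all 11 libraries. Of the jejunum genes, 200 were below 1 normalized CPM in every pancreas library, and of the pancreas genes, 289 were below it in every jejunum library. With the stricter limit of under 0.1 in every library of the other tissue, 32 genes were restricted to pancreas and 7 to jejunum. Which tissue had more depended on the rule: there were 44 jejunum and 17 pancreas genes without a scaling factor, and 178 and 150 by a log2 fold change of 5 or more with groups apart and 10 normalized CPM or more in the higher tissue. These classes were set by the values compared and are given without a test. The jejunum count depended on single libraries: it was 18 in place of 7 without pancreas replicate 4, and 12 without pancreas replicate 1. A member of these classes had up to 30 counts in a jejunum library or up to 10 in a pancreas library, so restricted does not mean absent.

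One pancreas-restricted gene carried a symbol, *AvBD10*, an avian beta-defensin that belongs to the antimicrobial peptides. It stood at 7.93, 6.92, 6.6, 2.08 and 14.3 normalized CPM in pancreas replicates 1 to 5, while the jejunum libraries ranged from 0 to 0.0955 (median 0.0226). The log2 fold change was -7.86 with an SE of 0.71, and, as for the whole class, the choice fixed that the tissues do not overlap. It was described after its values were seen. Its lowest pancreas library was replicate 4.

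The study listed genes that responded to SB within each tissue, 41 in the jejunum and 125 in the pancreas, and 155 linked entries of these could be tested between the tissues. Because the study chose them on the diet difference in these same libraries, their position between the tissues is a description. Over both lists, 49 (31.6%) were higher in jejunum, 48 (31.0%) were higher in pancreas and 58 did not pass the test, which compares with 20.0% and 18.5% of all genes tested. The median log2 fold change of the 155 was -0.05. Without a scaling factor, 89 were called higher in jejunum and 26 in pancreas.

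The genes higher with SB in the pancreas fell on both sides. Of 86 tested, 31 (36%) were higher in jejunum, 32 (37.2%) were higher in pancreas and 23 did not pass. Their log2 fold changes spread from -8.30 to 6.67. Of 23 genes higher with SB in the jejunum, 8 (34.8%) were higher in jejunum and 2 (8.7%) in pancreas (median log2 fold change 0.87). The genes that were higher in control broilers were divided as 3 and 6 of 18 on the jejunum list (16.7% and 33.3%). On the pancreas list they were divided as 7 and 8 of 30 (23.3% and 26.7%). Of all genes tested, 20.0% were higher in jejunum and 18.5% in pancreas, so the 16.7% and 23.3% lay near the share of all genes. The small counts moved with single libraries: the 2 became 4 without jejunum replicate 6, and the 3 became 5 without pancreas replicate 3.

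Some of the genes higher with SB in the pancreas were far higher in the jejunum. *SLC9A3* (chromosome 2, 55391772 to 55458047, GRCg7b) encodes the sodium-hydrogen exchanger of the apical membrane that takes up sodium in the gut. Its jejunum libraries ranged from 85 to 257 normalized CPM (median 139), and pancreas replicates 1 to 5 stood at 5.27, 3.00, 1.38, 11.0 and 3.04. The lowest jejunum library was above the highest pancreas library, replicate 4, and the log2 fold change was 4.95 with an SE of 0.54 (adjusted p = 5.39e-06).

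*MYO7B* (chromosome 9, 944922 to 996538), a myosin of the brush border that holds microvilli together, was among the most abundant genes of the SB lists in the jejunum. It ranged from 475 to 673 normalized CPM there (median 603), compared with 24.2, 7.36, 3.54, 30.8 and 12.5 in pancreas replicates 1 to 5. The groups were far apart (log2 fold change 5.23, SE 0.52, adjusted p = 2.74e-06), and replicates 1 and 4 were the high pancreas libraries. *KRT40*, labelled as a keratin, had a similar jejunum level of 454 to 879 normalized CPM and stood alone in pancreas replicate 4, which held 52.9 and the other 4 held 1.70 to 8.61 (log2 fold change 5.50, SE 0.87, adjusted p = 0.000125). *CYP2C23a*, a cytochrome P450, was also highest in pancreas replicate 4, with 97.4 there and 7.93 to 21.3 in the others, against 170 to 1210 in the jejunum (log2 fold change 4.21, SE 0.80, adjusted p = 0.000542). *MYO7B*, *KRT40* and *CYP2C23a* were chosen after their values were seen, as were *ROS1*, *ATP10B*, *ADAM28*, *GATD3AL2*, *CLRN3*, *CAPN9* and *COL17A1* in the following sentences.

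Of the genes chosen after their values were seen, 6 more of the pancreas list were higher in jejunum. The log2 fold change was 4.85 for *ROS1*, a receptor tyrosine kinase, 4.14 for *ATP10B*, a phospholipid flippase, and 3.83 for *ADAM28*, a membrane protease. It was 5.03 for *CAPN9*, a calpain of the digestive tract, 4.89 for *COL17A1*, a collagen of hemidesmosomes, and 5.21 for *CLRN3*. In each of these 6 genes, all jejunum libraries were above all pancreas libraries.

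Genes of mucus secretion were divided. *AGR2* (chromosome 2, 28469531 to 28473603), which encodes a protein of the endoplasmic reticulum needed for mucin folding, ranged from 136 to 288 normalized CPM in the jejunum (median 219) and stood at 22.9, 9.39, 3.92, 10.6 and 23.1 in pancreas replicates 1 to 5. The tissues did not overlap, replicates 1 and 5 were the high pancreas libraries, and the log2 fold change was 3.90 (SE 0.44, adjusted p = 8.21e-06). *TFF3* (chromosome 1, 109461612 to 109465955), a trefoil peptide that goblet cells of mammals secrete with mucus, was at the opposite side and low in both tissues. Its jejunum libraries held 0.296 to 0.862 normalized CPM (median 0.525), and pancreas replicates 1 to 5 held 4.21, 1.47, 0.912, 0.828 and 0.528, so that replicate 1 stood alone and the ranges overlapped. The log2 fold change of *TFF3* was -1.58 (SE 0.50, adjusted p = 0.0135), and without pancreas replicate 1 it was -0.83 (adjusted p = 0.0518) and no longer called. With the replicate number as a block it was not called either, at -1.21 for the number in the library names (adjusted p = 0.0887) and -1.09 for that of the titles (adjusted p = 0.136).

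*GAL3ST2*, a sulfotransferase acting on glycans such as those of mucins, was on the jejunum list. It ranged from 0.141 to 2.41 normalized CPM in the jejunum (median 0.39) and stood at 0.218, 0.180, 0.108, 0.0473 and 0.106 in pancreas replicates 1 to 5, with overlap at the low jejunum libraries (log2 fold change 2.51, SE 0.80, adjusted p = 0.0151). Its counts were 4 to 448 per library, and limma-voom did not call it (adjusted p = 0.155).

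Receptors, channels and transporters stood on both sides. *FFAR4* (chromosome 6, 21193387 to 21199152), the receptor for long-chain fatty acids, held 2.55 to 5.10 normalized CPM in the jejunum (median 4.09) and 2.10, 0.973, 0.516, 0.426 and 3.01 in pancreas replicates 1 to 5. Only pancreas replicate 5 reached into the jejunum range, and the log2 fold change was 1.54 (SE 0.46, adjusted p = 0.01). *RBP4A*, a retinol-binding protein and a neighbour of *FFAR4* on chromosome 6 (21185245 to 21192899), was on the other side. It held 0.350 to 1.25 in the jejunum (median 0.846) and 3.86, 4.67, 2.71, 0.946 and 11.6 in the pancreas, where replicate 5 was highest and replicate 4 lay within the jejunum range (log2 fold change -2.54, SE 0.52, adjusted p = 0.00094).

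*TRPM3*, a calcium-permeable cation channel on the jejunum list, held 0.585 to 3.17 normalized CPM in the jejunum (median 1.53) and 0.283, 0.217, 0.0960, 0.438 and 0.290 in pancreas replicates 1 to 5. It was without overlap, with a log2 fold change of 2.63 (SE 0.48, adjusted p = 0.000397). *SLC16A4*, of the monocarboxylate transporter family, ranged more widely in the jejunum, from 1.23 to 8.38 (median 4.00), and its low jejunum libraries lay within the pancreas range of 0.704 to 2.12 (log2 fold change 1.54, SE 0.54, adjusted p = 0.0243). Leaving out jejunum replicate 4, jejunum replicate 5 or pancreas replicate 2 ended this call, with adjusted p of 0.0566, 0.053 and 0.0578, and so did the block by the replicate number of the titles (adjusted p = 0.121). *SCTR*, the receptor for secretin and a marker of pancreatic ducts, was also higher in jejunum, at 7.25 to 11.8 against 1.46 to 6.81 normalized CPM (log2 fold change 1.02, SE 0.36, adjusted p = 0.0244). That value was close to the fold required, and it was 0.96 without jejunum replicate 3, 0.84 without pancreas replicate 3 and 0.80 without pancreas replicate 4. *SLC22A13L*, labelled as a solute carrier and chosen after its values were seen, was also higher in jejunum, with a log2 fold change of 5.53 (SE 0.49, adjusted p = 1.02e-06).

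**Figure D3:**
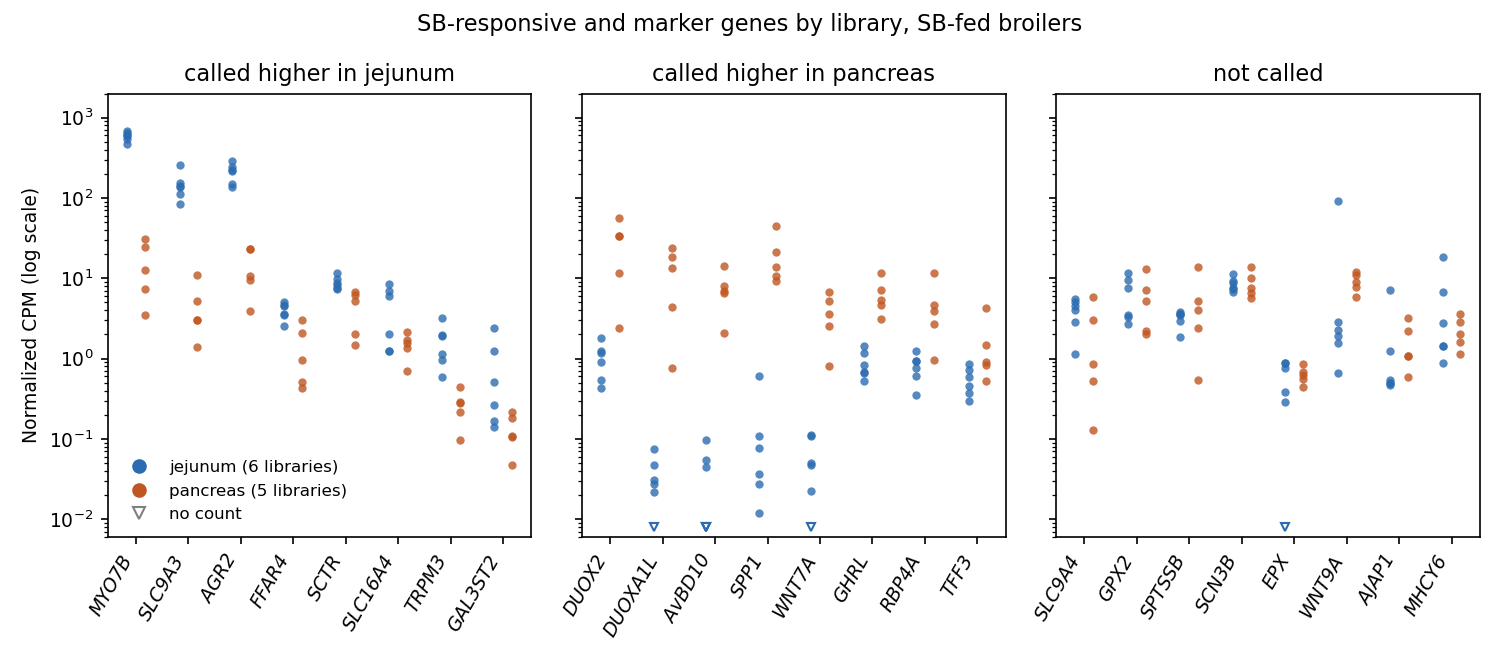
Normalized CPM (y axis, log scale) of 24 genes in each jejunum library (blue, 6) and each pancreas library (orange, 5) of SB-fed broilers, in 3 panels by call, with triangles for libraries without a count. *MYO7B*, *SLC9A3* and *AGR2* are without overlap, *TFF3* is apart mainly in 1 pancreas library, and *WNT9A* has 1 jejunum library at 90.7 with the others at 0.668 to 2.84.

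Other genes of the pancreas list were higher in pancreas, and those described next were low in the jejunum. *DUOX2*, the dual oxidase that releases hydrogen peroxide at epithelial surfaces, stood at 55.8, 33.7, 11.7, 2.44 and 33.3 normalized CPM in pancreas replicates 1 to 5 and at 0.424 to 1.82 in the jejunum (median 1.05). All pancreas libraries were above all jejunum libraries, although replicate 4 was just above (log2 fold change -4.75, SE 0.68, adjusted p = 5.6e-05). *DUOXA1L* (chromosome 10, 1063257 to 1071952), named after the maturation factor of such oxidases and chosen after its values were seen, was also highest in pancreas replicate 1 and lowest in replicate 4, at 23.6, 13.4, 4.41, 0.769 and 18.5, and did not exceed 0.0752 in the jejunum. Its log2 fold change of -8.30 (SE 0.86, adjusted p = 2.08e-06) was the most pancreatic of the linked genes.

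*SPP1* (chromosome 4, 45233954 to 45237015) encodes osteopontin, a secreted phosphoprotein that marks pancreatic duct cells in mammals. It stood at 21.4, 14.0, 10.8, 9.15 and 44.5 normalized CPM in pancreas replicates 1 to 5, and the jejunum libraries held 0.0119 to 0.612 (median 0.0564). The tissues did not overlap, and the log2 fold change was -6.94 with an SE of 0.86 (adjusted p = 1.82e-05). *GHRL* (chromosome 12, 19630797 to 19633503) encodes ghrelin, a hormone of the stomach and of pancreatic endocrine cells. It was also without overlap, with 7.16, 11.8, 4.59, 5.34 and 3.14 in pancreas replicates 1 to 5 and 0.53 to 1.45 in the jejunum (median 0.752), and had a log2 fold change of -2.87 (SE 0.36, adjusted p = 1.86e-05). *WNT7A*, a secreted Wnt ligand, held 0.805 to 6.78 in the pancreas and 0 to 0.113 in the jejunum (log2 fold change -6.02, SE 0.64, adjusted p = 4.4e-06).

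Further genes of the pancreas list were higher in pancreas, all 4 chosen after their values were seen. The log2 fold change was -5.48 for *HPX*, the haem-binding protein hemopexin, -4.31 for *LVRN*, an aminopeptidase, -5.09 for *SLC28A3*, a nucleoside transporter, and -4.81 for *MMP7*, a matrix metalloproteinase. *MMP7* was the only one of the 4 whose ranges overlapped, since jejunum replicate 6 held 2.41 normalized CPM and the other jejunum libraries 0.0239 to 0.580. *DUSP6*, a phosphatase that acts on the kinase ERK, was on the pancreas list as higher in control broilers and was abundant in pancreas, with 49.5 to 111 normalized CPM against 7.62 to 18.8 in the jejunum (log2 fold change -2.73, SE 0.26, adjusted p = 1.95e-06).

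The jejunum list held genes that were far higher in pancreas. *FAM179A* stood at 33.9, 111, 41.6, 84.3 and 59.5 normalized CPM in pancreas replicates 1 to 5 and at 0.950 to 2.23 in the jejunum (log2 fold change -5.61, SE 0.36, adjusted p = 6.31e-08). *VEPH1* stood at 13.2, 19.2, 24.3, 35.6 and 7.15 in the pancreas and at 0.0903 to 1.19 in the jejunum (log2 fold change -5.46, SE 0.79, adjusted p = 6.21e-05). Both were without overlap, and both were listed by the study for a diet response in the jejunum, where their level was the lower one. *KIF6*, a kinesin motor, *GLDN* and *KCND3*, a potassium channel subunit, shared that direction with log2 fold changes of -2.71, -2.93 and -1.41. They were low in both tissues, with means of 1.13, 1.63 and 0.453 normalized CPM in the pancreas and 0.183, 0.209 and 0.176 in the jejunum. The ranges of *KIF6* and *KCND3* overlapped, and *KIF6* was highest in pancreas replicate 1, at 3.28 with 0.165 to 1.25 in the others. The call for *KCND3* was lost without jejunum replicate 5 (adjusted p = 0.0563) and without pancreas replicate 1 (adjusted p = 0.0851).

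Several genes did not differ between the tissues beyond the spread of the libraries. *SLC9A4*, another sodium-hydrogen exchanger, held 1.15 to 5.51 normalized CPM in the jejunum (median 4.28) and 5.86, 3.02, 0.528, 0.130 and 0.845 in pancreas replicates 1 to 5. Pancreas replicate 1 was above every jejunum library and replicates 3, 4 and 5 were below every one, and the log2 fold change was 0.87 (SE 0.72, adjusted p = 0.302). Without pancreas replicate 1 it was 1.72 and passed the test (adjusted p = 0.0435). *GPX2*, a glutathione peroxidase of digestive epithelium, overlapped fully, at 2.67 to 11.6 in the jejunum and 2.04 to 13.1 in the pancreas (log2 fold change 0.11, SE 0.53, adjusted p = 0.86). *SCN3B*, a sodium channel subunit, was likewise at 6.80 to 11.2 and 5.63 to 13.8 (log2 fold change -0.05, SE 0.22, adjusted p = 0.858).

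*PTGS2*, the inducible cyclooxygenase of prostaglandin synthesis, lay at the threshold. Its pancreas libraries stood at 22.0, 106, 20.8, 43.1 and 78.5 normalized CPM, and the jejunum libraries at 21.2 to 34.9 (median 25.7), so replicates 1 and 3 of the pancreas were at the jejunum level and the other 3 were above it. The log2 fold change was -1.0 (SE 0.38, adjusted p = 0.0331). It was not called without any 1 of 7 libraries, at log2 fold changes of -1.0 to -0.61, nor with the number in the library names as a replicate block, at -0.76 (adjusted p = 0.0659). *POU1F1*, a transcription factor of the pituitary, was called higher in jejunum at 1.82 (SE 0.75, adjusted p = 0.0476), and this call was lost in 8 of the 11 fits that each left out a library, with adjusted p of up to 0.126.

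The position of *WNT9A* depended on 1 jejunum library. This Wnt ligand of the jejunum list stood at 5.82, 12.1, 9.03, 10.9 and 7.87 normalized CPM in pancreas replicates 1 to 5. Jejunum replicate 6 held 90.7, and the other 5 jejunum libraries held 0.668 to 2.84, below every pancreas library. With all libraries the log2 fold change was 0.87 (SE 1.10, adjusted p = 0.513), and without jejunum replicate 6 it was -2.28 (adjusted p = 0.000142), that is higher in pancreas. *AJAP1*, a protein of adherens junctions, had the same library on top at 7.21, with 0.468 to 1.25 in the other jejunum libraries and 0.584 to 3.21 in the pancreas, and moved from 0.10 (adjusted p = 0.914) to -1.33 (adjusted p = 0.0301) without it. *PRDM8* in the jejunum was also highest in replicate 6, at 3.11 with 0.127 to 0.723 in the others. *MHCY6*, a class I-like gene of the major histocompatibility complex, was highest in a different library, jejunum replicate 1, at 18.3 with 0.887 to 6.67 in the others, and did not pass the test (log2 fold change 1.22, SE 0.73, adjusted p = 0.157).

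The level of jejunal genes in the pancreas libraries was followed with 143 genes that were at least 20-fold higher in jejunum than in pancreas of control broilers, at a mean of 100 normalized CPM or more there. This set was defined without the SB libraries, although 10 of its genes are on the pancreas list of SB-responsive genes. The large difference required in control broilers largely set the call in SB-fed broilers. All 143 were called higher in jejunum in SB-fed broilers, against 20.0% of all genes tested, with a median log2 fold change of 5.43. Their summed level was 51310 to 89080 normalized CPM in the jejunum, and in pancreas replicates 1 to 5 it was 1.5%, 0.791%, 0.699%, 4.68% and 1.37% of the jejunum median. Pancreas replicate 4 thus held the most of these transcripts.

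The SB-responsive genes of that kind lay above or below the set in the same library. They belong to the set and were listed by the study as higher with SB in the pancreas. A level above the set in these pancreas libraries was thus partly built in by that choice. The level of the set is a sum, in which its most abundant genes weigh most. *KRT40* and *MYO7B* in pancreas replicate 4 reached 8.13% and 5.11% of their jejunum medians, and *CYP2C23a* reached 19.3%. In the same library *ROS1* stood at 1.36%, *ATP10B* at 2.85% and *GATD3AL2* at 0.563%. In pancreas replicate 1, with 1.5% for the set, *ADAM28* stood at 16.2%, *ATP10B* at 13.0% and *AGR2* at 10.5%, and *KRT40* at 1.08%. For the 31 genes higher with SB in the pancreas and called higher in jejunum, the highest pancreas library was counted. It was replicate 1 for 20, replicate 4 for 8 and replicate 5 for 3. Replicate 1 was also the most frequent for the 32 genes of that list called higher in pancreas, at 13. Replicate 5 followed with 11, replicate 2 with 5 and replicate 4 with 3. The share over all genes was not counted. The part of jejunal transcripts in these results was not tested.

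**Figure D4:**
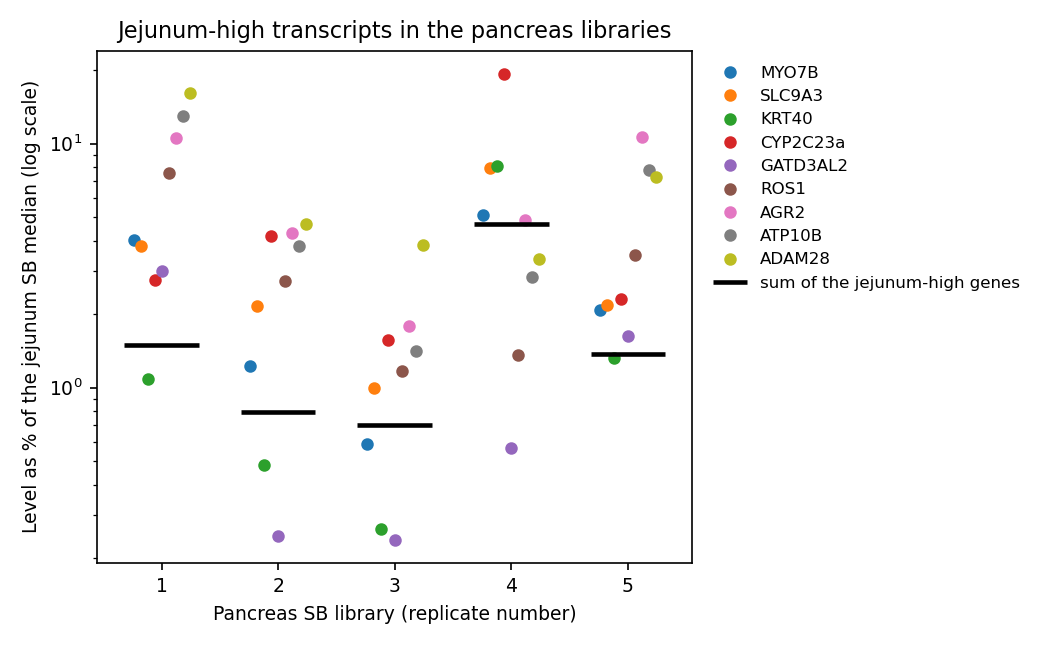
Level in each pancreas library of SB-fed broilers (x axis, replicate 1 to 5) as a percent of the jejunum SB median (y axis, log scale), with points for 9 SB-responsive genes and black bars for the sum of the jejunum-high genes. The bars lie at 0.699% to 4.68%, highest in replicate 4, and *ADAM28*, *ATP10B* and *AGR2* lie above the bar in replicate 1 at 10.5% to 16.2%. The 9 genes belong to the set and were listed by the study as higher with SB in the pancreas.

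In the reverse direction, 85 genes were at least 20-fold higher in pancreas of control broilers at 100 normalized CPM or more. That requirement again largely set the call in SB-fed broilers. All 85 were called higher in pancreas there, against 18.5% of all genes tested (median log2 fold change -9.35). Their sum was 980700 to 1730000 normalized CPM in the pancreas and 288.9 to 453.3 in the jejunum, where the 6 libraries were thus close to each other.

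The same tissues of control broilers gave a similar map. There 5674 of 14574 genes tested (38.9%) differed, 2949 higher in jejunum (20.2%) and 2725 higher in pancreas (18.7%). The log2 fold changes of the 2 diets had an r of 0.973 across 14535 genes, which are not independent replicates. Of 5579 genes called in SB-fed broilers and tested in control broilers, 4976 were called in the same direction in both.

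A single gene was called in opposite directions, *TFF3*, at -1.58 in SB-fed and 1.26 in control broilers (adjusted p = 0.0135 and 0.03). The difference itself was tested as the interaction of tissue and diet in one edgeR fit over all 22 libraries. No gene passed, *TFF3* included: 0 of 15032 had an adjusted p under 0.05 (521 had an unadjusted p under 0.05), the smallest adjusted p was 1, and the legacy edgeR fit, limma-voom and a fit with the number in the library names as a replicate block also gave 0.

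The SB-responsive lists sat differently between the tissues of control broilers. They were chosen on the diet difference in these libraries, so the direction of the shift between diets was largely set by that choice. The median log2 fold change of the genes higher with SB in the pancreas was -0.44 over 86 genes in SB-fed broilers. In control broilers it was 1.93 over 81 genes. Those without a control value were all negative in SB-fed broilers, at -5.36 to -1.55. The medians are thus not of the same genes, and part of the shift comes from the genes left out. In control broilers, 46 of the 81 were called higher in jejunum and 20 higher in pancreas, compared with 20.2% and 18.7% of all genes tested there. For the genes higher with SB in the jejunum, the median was 0.87 over 23 genes in SB-fed broilers and -1.06 over 21 genes in control broilers. The following genes were among those called higher in the same tissue in both diets. *SLC9A3* had a log2 fold change of 4.95 in SB-fed and 7.22 in control broilers, *AGR2* 3.90 and 5.66, *DUOX2* -4.75 and -2.05, *GHRL* -2.87 and -1.75, and *SPP1* -6.94 and -6.50. Other described genes were called in SB-fed but not in control broilers, among them *TRPM3* (0.224 in control), *RBP4A* (-0.477), *GAL3ST2* (0.765) and *SLC16A4* (0.24). *WNT9A* and *AJAP1*, not called in SB-fed broilers, were called higher in pancreas in control broilers, at -2.58 and -2.28. This rested on 1 library, as without jejunum replicate 6 both were also called higher in pancreas in SB-fed broilers, at -2.28 and -1.33.

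**Figure D5:**
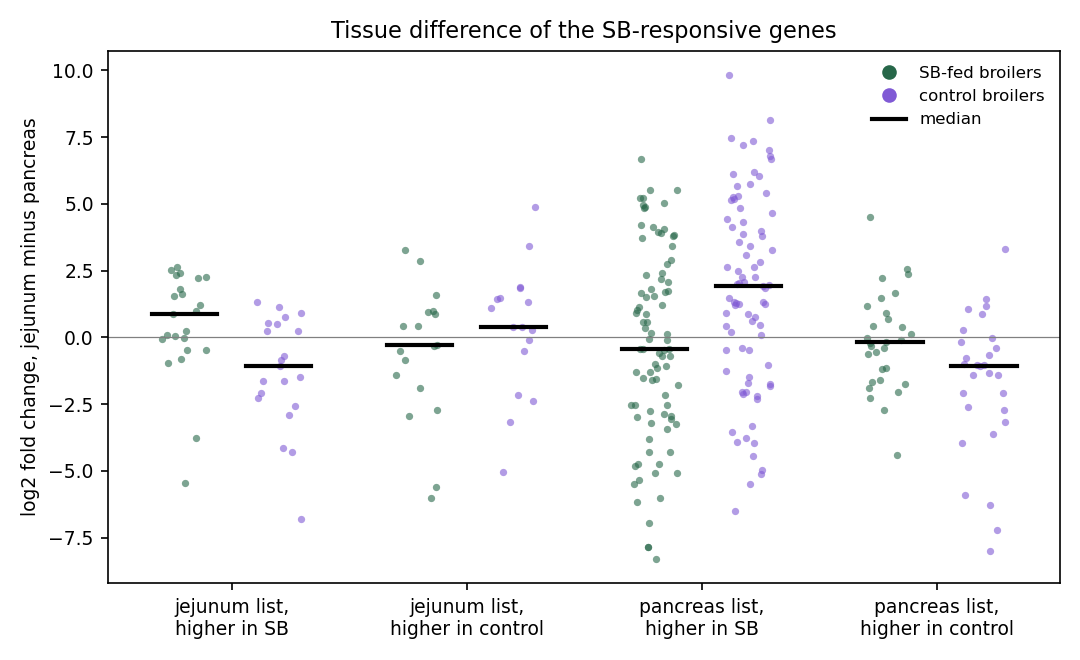
Log2 fold change between the tissues (jejunum minus pancreas, y axis) of the SB-responsive genes by list (x axis) in SB-fed broilers (green) and control broilers (purple), 1 point per gene and a black bar for the median. The genes higher with SB in the pancreas reach from -8.30 to 6.67 in SB-fed broilers, with a median of -0.44. Their median is 1.93 in control broilers, and the direction of this shift was largely set by the choice of the genes. The medians cover 86 genes in SB-fed and 81 in control broilers. Those without a control value were all negative in SB-fed broilers, so part of the shift comes from the genes left out.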

How the data were processed

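RNA of the proximal jejunum (6 libraries) and pancreas (5 libraries) of SB-fed broilers, and of both tissues of control broilers (11 libraries), was analysed, with groups taken from the labels. The authors deposited raw counts of 17007 Ensembl genes, made with FastQC 0.12.0, Trimmomatic 0.39, STAR 2.7.9 (on GRCg7b) and HTSeq 2.0.3. The treatment of strand, mates and multi-mapping reads is not given in the sources used here, so near-identical and overlapping genes are uncertain. The totals exceed the read numbers the study gives, and 63.0% to 68.6% of counts from 1 to 59 were even, so the number of reads behind a count is not known. The authors also deposited log2 CPM values, which were reproduced from the counts (374154 of 374154 within 1e-06) and not used further. The authors' fold changes and P-values in the supplementary tables served only to link symbols: an identifier was matched when its diet comparison, refitted here, gave both values to 3 decimals. This linked 41 of 41 jejunum and 123 of 125 pancreas entries, and the 41 entries given by identifier all landed on their own. Gene positions are RefSeq's for GRCg7b.

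Low counts were removed by filterByExpr at its minimum count of 10 and total of 15 (701 of the genes had no count in the 11 libraries). With factors from the trimmed mean of M-values, the tissues were compared in R 4.3.3 by the quasi-likelihood test of edgeR 4.0.16, adjusting over 14878 genes (Benjamini-Hochberg). SE is the absolute log2 fold change divided by the square root of F, so it follows the test and not the spread of the library values. The procedure was also run on simulated data, with both tissues drawn from the jejunum profile and a small share of genes changed. That simulation lacked the concentrated pancreas counts and the extreme fold changes, so it cannot show how the scaling performs on these data. Single values per library were compared by exact permutation tests over free regroupings. These treat the libraries as independent, although the tissues share broilers. Regrouping within 5 pairs would allow so few regroupings that a two-sided p could not fall under 0.05. The permutation p-values thus hold only without pairing. Named genes are those the study's Results or Discussion name and members of the marker lists that could be linked, with the exceptions stated. The members and lists were chosen with earlier results of these data known. Alternatives were DESeq2 1.42.0, limma-voom (limma 3.58.1), other scalings and filters, the legacy and robust fits, thinned libraries, an unadjusted P, a fold threshold inside the test, a fit over both diets, the replicate block and each library left out. No pair of libraries of a tissue agreed within sampling noise (chi-square of at least 54.1 per gene). P-values of the main tests set a difference against the spread between these libraries or, in the permutation tests, against their regroupings. Both take the libraries as independent. Reads are not independent molecules, and the floor of 3 counts covers counting error only.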

Additional observations from a re-analysis of the deposited data

Results flagged for a closer look

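In 142 groups of 5 or 6 libraries, the highest or lowest library was compared with the rest by Dixon's test, and 15 stood apart. The test flags about 1 in 20 by chance for normally distributed values, which was not checked here. Most groups were also genes chosen on a diet difference in these same libraries, so the number cannot be set against that rate. In all 15, the library that stood apart was the highest one. Jejunum replicate 6 was highest in 5 of them: *WNT9A* at 90.7 normalized CPM (others up to 2.84), *AJAP1* at 7.21 (up to 1.25), *PRDM8* at 3.11 (up to 0.723), *MMP7* at 2.41 (up to 0.580) and *SPP1* at 0.612 (up to 0.109). The other jejunum libraries that stood apart were replicate 1 for *MHCY6* at 18.3 normalized CPM, replicate 2 for *FAM179A* at 2.23, replicate 3 for *CGTL* at 4.62, and replicate 5 for *GATD3AL2* at 457. Replicate 5 also had the highest total of the jejunum, at 203 when counted in units of 1000000.

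In the pancreas, replicate 4 stood apart in 3 values, with a sum of the jejunum-high genes of 3870 normalized CPM (others up to 1240), *CYP2C23a* at 97.4 (up to 21.3) and *KRT40* at 52.9 (up to 8.61). Replicate 1 stood apart for *TFF3* at 4.21 normalized CPM (up to 1.47), and replicate 5 for *BCHE*, the butyrylcholinesterase gene, at 848 (up to 204). The cause of these values was not tested.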

How the results depend on the processing

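Of 1644 log2 fold changes of 64 described genes under the alternatives, 1561 kept their call, that is called in the same direction or still not called. A gene that was not called could change sign and still count among these. In every alternative, 36 genes kept their call. The differences in library concentration passed the same test of free regroupings with thinned libraries and without the most abundant gene of each library. Without a scaling factor, calls numbered 11825 in all, 11165 higher in jejunum and 660 in pancreas. By level class, from under 1 to 100 to 1000 normalized CPM, they were 1280, 3075, 5869 and 931 for jejunum and 106, 231, 223 and 71 for pancreas. SB-list calls were then 16 for jejunum among jejunum genes higher in SB, 10 and 3 (jejunum and pancreas) among those higher in control, 20 for pancreas among pancreas genes higher in SB, 20 and 1 among those higher in control, and 89 and 26 over all. Log2 fold changes reversed for *KCND3* (0.23), *RASSF10* (1.42), *CGTL* (1.64), *PLEKHM3* (1.32), *SCN3B* (1.77), *EPX* (1.54), *PTGS2* (0.86) and *BCHE* (1.72). Other scalings moved the median of all genes by less than 0.1.

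For jejunum genes higher in SB, the jejunum count of 8 became 5 with limma-voom, 4 with the filter of 1 CPM and 4 with a fold threshold inside the test. For those higher in control, the jejunum count of 3 became 5 with limma-voom and 1 with the filter of 1 CPM, and the pancreas count of 6 became 3 with that filter. For pancreas genes higher in SB, the pancreas count of 32 became 19 with that filter. For those higher in control, the jejunum count of 7 became 3 with that filter and 4 with the fold threshold, and the pancreas count of 8 became 14 without a filter, 3 with the filter of 1 CPM, 5 with thinned libraries and 5 with the fold threshold. Over all entries, the filter left 27 pancreas calls. It tests fewer genes; the causes of the other changes were not tested.

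Restricted genes in jejunum and pancreas numbered 2 and 10 under 0.05 CPM, 80 and 152 under 0.5 CPM, 44 and 17 without scaling, and 178 and 150 by a log2 fold change of 5 or more (added after seeing the data). Thinning gave 4 in the jejunum.

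Leaving out each library gave 5582 to 5881 calls (jejunum 2877 to 3189, pancreas 2644 to 2848). SB-list counts for jejunum and pancreas ranged from 6 to 9 and 2 to 4, 3 to 5 and 5 to 7, 30 to 33 and 30 to 34, 6 to 8 and 7 to 11 in the order above, and 45 to 51 and 44 to 50 over all. Restricted genes ranged from 7 to 18 and 32 to 39, top 1, 10 and 100 differences from 21.4 to 22.3, 50.5 to 52.6 and 58.4 to 60.5 percentage points, and the log2 number of genes holding 50% from -7.18 to -7.06. *WNT9A* ranged from -2.28 to 1.15 and *AJAP1* from -1.33 to 0.52, both lowest and reversed without jejunum replicate 6.

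One broiler per pen gave both tissues, so each pancreas library of SB-fed broilers shares a broiler with a jejunum library. However, no source says that a replicate number marks the broiler. Each pancreas library of SB-fed broilers shares its library-name number with a jejunum library. Same-numbered libraries correlated at 0.0497 to 0.205 by library name, over 0.1 in 4 of 5 pairs with 3 of 5 each other's best partner. By title they correlated at -0.113 to 0.202, with 3 of 5 each other's best partner. Replicates 1 and 2 of the titles are the same pairs as numbers 3 and 11 of the library names, so those are counted under both. The remaining pairs stood at 0.0497, 0.122 and 0.143 by library name and at -0.08, 0.202 and -0.113 by title. These values cannot decide which libraries share a broiler. The numbers were not used as pairs in the main test, which treats the libraries as independent although the tissues share broilers. The replicate block gave 5630 calls by library name (2956 and 2674) and 5609 by title (2938 and 2671). It moved the jejunum count of genes higher in control on the jejunum list from 3 to 5 (library name) and reversed *WNT9A* to -2.40 (title). By title, jejunum replicate 6 has no pancreas library of its number, so it does not enter the tissue difference of that fit. The interaction with the block by library name (added after seeing the data) gave 0 genes, 532 at an unadjusted p under 0.05.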
